A study of Mus musculus with 36 samples.

Results

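RNA from MSR-dCas9-Activator cells was compared with RNA from MSR-dCas9-Control cells 6 h after doxycycline had been taken off. The comparison holds the 3 libraries of each line at that time, chosen by their labels, which are 6 of the 36 libraries of both lines, and every gene and repeat family counted in them. Both lines are mouse embryonic fibroblasts (MEF) that express dCas9, a Cas9 that binds DNA without cutting it, under doxycycline, and a guide RNA against the major satellite repeats (MSR) constitutively from the same plasmid. In the MSR-dCas9-Activator line dCas9 is fused to VPR, a transcriptional activator, and in the MSR-dCas9-Control line it carries no effector. Both lines were made by PiggyBac transposition, selected with hygromycin, and kept as mixed cultures rather than clones. Both received 10 ng/ml doxycycline, for 24 h in the Control line and for 6 h in the Activator line, and then fresh medium without it for 6 h. The lines therefore differ in the length of induction as well as in the effector, and these cannot be told apart. The study describes its replicates as biological. The edgeR p-values rest on a spread between replicates estimated over all 36 libraries, not over these 6 alone.

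Major satellite repeats are A/T-rich tandem arrays that form the pericentric heterochromatin of mouse chromosomes, where H3K9 methylation and HP1 proteins accumulate and where arrays of several chromosomes cluster into DAPI-dense foci. They are transcribed at a low level in fibroblasts, and the transcripts tend to stay on chromatin. VPR joins several activation domains, which recruit Mediator and histone acetyltransferases and so RNA polymerase II to the site that dCas9 binds.

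The gene counts per library ran from 27376846 to 45541661 in the Control line and from 41298575 to 47682758 in the Activator line. Repeat families took 21.6% to 23.7% of all counts in the Control line and 23.0% to 27.2% in the Activator line, a difference of 2.07 percentage points (exact two-sided permutation test, p = 0.3, where 3 against 3 libraries cannot go below 0.1). The first principal component of the genes held 89.9% of the variance and separated the lines, and Activator replicate 2 lay nearer to the Control libraries than the other Activator libraries did. This showed most in the genes that fell, whose median level was 27.0%, 46.5% and 29.6% of the Control mean in Activator replicates 1, 2 and 3. Values below are normalised read counts (scaled by TMM, a trimmed mean that assumes most genes keep their level), in the order of replicates 1, 2 and 3. On this scale the 28542 genes tested had a median log2 fold change of 0.14. Scaled instead to the 13 mRNAs encoded by the mitochondrial genome it was -0.62, with DESeq2 size factors 0.33, and with library size alone -0.01, so a small fold change has no fixed direction in these data.

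MSR transcripts, counted as GSAT_MM, rose 9.15 ± 0.88 on the log2 scale (SE, adjusted p = 5.09e-09, edgeR quasi-likelihood test). Their normalised counts were 1128, 1418 and 1154 in the Control line and 258340, 775182 and 1432210 in the Activator line. The lines did not overlap, and the Activator libraries spread over a wider range than the Control libraries. GSAT_MM took 0.00230%, 0.00276% and 0.00216% of all counts in the Control libraries and 0.450%, 1.42% and 2.28% in the Activator libraries (exact two-sided permutation p = 0.1, the smallest possible). The same contrast between the lines was 1.20 before induction, 7.92 at the end of induction, 8.70 at 3 h, 9.22 at 12 h and 8.60 at 24 h after removal. The minor satellite repeats of the centromere itself, SYNREP_MM, had counts of 200.2, 61.2 and 67.6 against 65639, 35791 and 51839.5 and rose 8.95 ± 0.46 (SE, adjusted p = 7.35e-14, edgeR). For SYNREP_MM the lines differed already before induction, by 2.90 (adjusted p = 0.000413, edgeR), and the 6 h difference exceeded that by 6.04 ± 0.57 (SE, adjusted p = 2.44e-08, edgeR). Here Activator replicate 2 was the lowest of the 3, where for GSAT_MM it was in the middle.

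The other 5 satellite families tested moved far less. MurSAT1 rose by 1.52 on the log2 scale, and without Activator replicate 1 or Control replicate 3 its adjusted p was 0.106 and 0.0672 (edgeR). MMSAT4 fell, from 8779.5, 9403 and 11108 to 3683, 4946 and 3551 (log2 fold change -1.28), and so did ZP3AR (-0.58) and SUBTEL_sa (-0.62), the latter not without Activator replicate 1 or 3 or Control replicate 3 (adjusted p = 0.0812, 0.154 and 0.343, edgeR). IMPB_01 was at 0.05 and was not called. Of all 1492 repeat families tested, 34.4% were called higher and 11.2% lower (adjusted p under 0.05, edgeR, and a log2 fold change beyond 0.5), which are 513 and 167 families. With DESeq2 size factors these were 626 and 101, with library size alone 412 and 236, and on the mitochondrial scale 182 and 678.

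**Figure D1:**
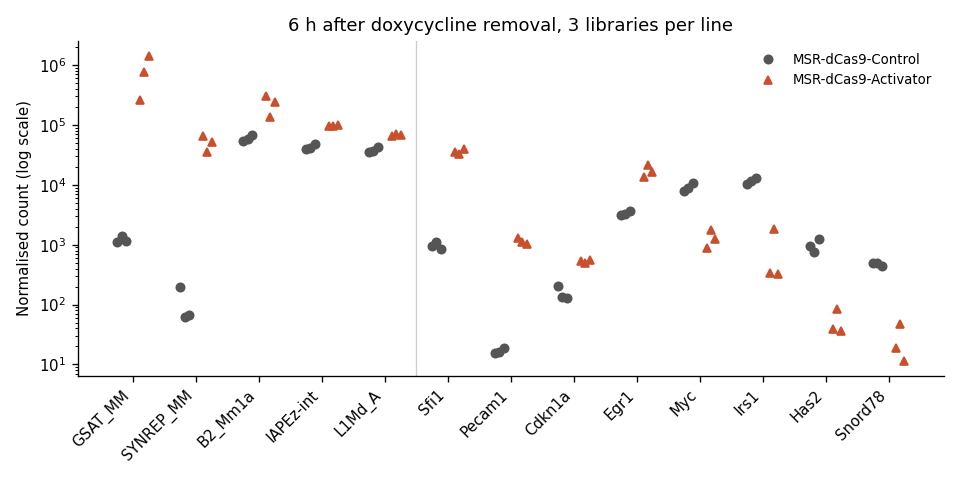
Normalised read counts (log axis) of 5 repeat families and 8 genes in each of the 6 libraries, with grey circles for MSR-dCas9-Control and orange triangles for MSR-dCas9-Activator. GSAT_MM and SYNREP_MM stand apart between the lines by the widest gap on the repeat side, Pecam1 and Sfi1 on the gene side, and Irs1, Has2, Snord78 and Myc lie lower in all 3 Activator libraries.

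Endogenous retroviruses are LTR elements that carry promoters of their own. Of 25 families of intracisternal A particles (IAP), 24 rose and 0 fell, with a median log2 fold change of 1.19 against 0.21 over all repeat families. The internal part IAPEz-int had 39209.8, 41644 and 48918 counts in the Control line and 97963, 95541 and 101654 in the Activator line, with little spread inside either (log2 fold change 1.19, adjusted p = 5.96e-15, edgeR). It stood at 1.75 at 12 h. Among the other ERVK families 167 of 254 rose and 3 fell (median 0.66), among ERV1 75 of 138 rose and 14 fell (0.60), among ERVL 47 of 109 rose and 3 fell (0.45), and among the MaLR families 26 of 104 rose and 3 fell (0.24). ETnERV-int rose by 1.33, MMERVK10C-int by 0.98, and MERVL-int, which is active in 2-cell embryos, by 0.71. The LTR of that element, MT2_Mm, rose by 0.62 but was at -0.080 on the mitochondrial scale, and MTA_Mm, a MaLR element of oocytes, was at 0.47 and was not called. MMVL30-int was at -0.44, with 57019, 22258 and 18394 counts in the Control line and 23066, 24962 and 21847 in the Activator line, and without Control replicate 1, which stood apart, it was at 0.19.

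Read on the mitochondrial scale, the IAP median was 0.49 and that of the young L1Md families 0.09, while the medians of the other ERVK (-0.03), ERV1 (-0.09), ERVL (-0.23) and MaLR (-0.45) families lay below 0. Of the 6 L1Md families, the LINE elements that can still retrotranspose, all 6 rose, with L1Md_A at 0.85 and L1Md_T at 0.71. Of the 126 older L1 families 22 rose and 5 fell, with a median of 0.06. Among short interspersed elements, the B2 family, which derives from a tRNA and is transcribed by RNA polymerase III, had 3 of 5 members higher, and B2_Mm1a went from 54682, 58789 and 69399 to 310161, 133980 and 239111 (log2 fold change 1.86 ± 0.30, SE, adjusted p = 1.22e-05, edgeR). Its lowest Activator library, replicate 2, was still above every Control library. B1_Mm, from 7SL RNA, was at 0.12 and was not called, and over all 37 SINE families 3 rose and 2 fell.

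tRNA families, also products of RNA polymerase III, were higher as a group: 44 of 56 rose and 3 fell, with a median of 1.72 that stayed at 1.00 on the mitochondrial scale. In the 3 replicate pairs the medians were 2.26, 1.02 and 1.78. The family with the largest rise, tRNA-Ala-GCY, had 33.6, 56.0 and 27.8 counts in the Control line and 595, 203 and 451 in the Activator line, and tRNA-Val-GTY rose by 3.07. These counts do not separate mature tRNAs from precursors or from tRNA copies within longer transcripts. Of 198 DNA transposon families 24 rose and 48 fell, and of 292 simple repeats 29 rose and 56 fell. Within the DNA transposons 15 of 30 hAT-Tip100 families rose and 0 fell, whereas 1 of 42 TcMar-Tigger families rose and 18 fell.

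Among families with a mean of at least 100 counts the largest rises after the satellites were (CAGGG)n, from 312, 423 and 415 to 8294, 8342 and 10676 (log2 fold change 4.55), MLT1I-int at 4.19 and ERVB5_1-I_MM-int at 3.97. The largest falls were smaller than these rises: UCON12A at -2.76 (-3.64 without Activator replicate 2), Eulor9A at -1.73, (CATCC)n at -1.69, (CTAAT)n at -1.46 and the small nuclear RNA family U5 at -1.42. A family pools all its copies in the genome, and copies inside genes count with the family, so a family value does not say which copies were transcribed.

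**Figure D2:**
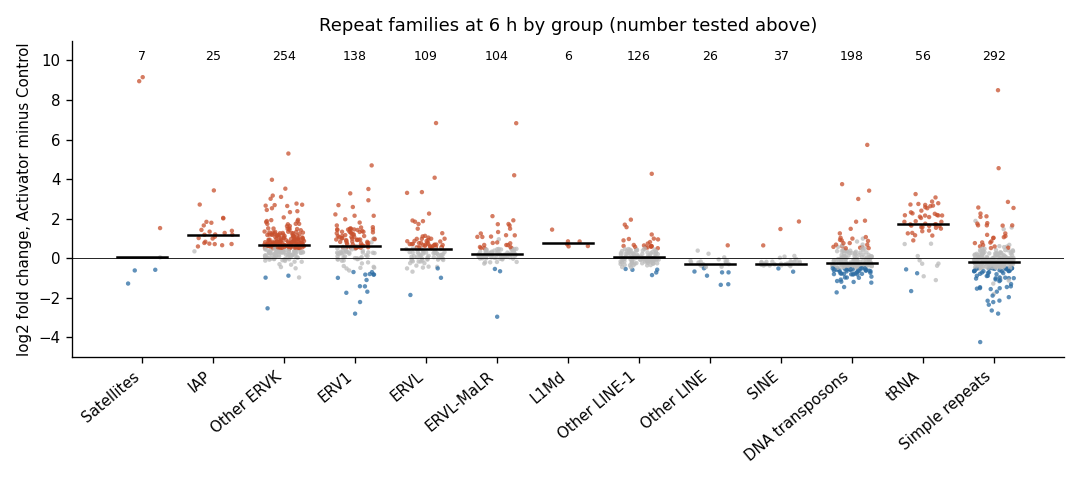
Log2 fold change (Activator less Control) of each tested repeat family, 1 point a family, in 13 groups, with a bar at the median and the number tested above each group. IAP, L1Md and tRNA families lie mostly above 0, the 2 satellite families GSAT_MM and SYNREP_MM lie highest, and DNA transposons and simple repeats spread around a median just below 0.

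Among the 28542 genes tested, 1241 were called higher and 2837 lower, where a call needed an adjusted p under 0.05 (edgeR), a log2 fold change beyond 1 and a mean above 100 normalised counts over the 6 libraries. These are 4.35% and 9.94% of the genes tested, and 9.06% and 20.7% of the 13704 genes with such a mean. The libraries of the lines did not overlap for 1217 of the genes that rose and 2774 of those that fell. These genes were called from the same libraries, so the lack of overlap is no separate support for the calls. With DESeq2 size factors 1592 rose and 2289 fell, with library size alone 1100 and 3336, and on the mitochondrial scale 832 and 6026. In bulk RNA a lower level in every cell and a loss of some cells cannot be told apart.

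Many genes that rose were low in the Control line. Of the 1241 that rose, 40 had 0 counts in all 3 Control libraries, 290 had a Control mean under 10 normalised counts and 586 a mean under 50. The median log2 fold change was 2.57 for those that rose and -1.52 for those that fell, of which 645 fell beyond 4-fold and 59 beyond 8-fold. By mean level the share called higher dropped from 23.5% at 100 to 300 normalised counts to 2.22% at 1000 to 3000, whereas the share called lower was 24.5% and 20.4% in the same ranges. Above 10000 normalised counts 2.71% were higher and 4.37% lower. The mean is taken over both lines, so genes low in the Control line reach these ranges through the Activator libraries. The high share of rises at 100 to 300 follows in part from this.

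**Figure D3:**
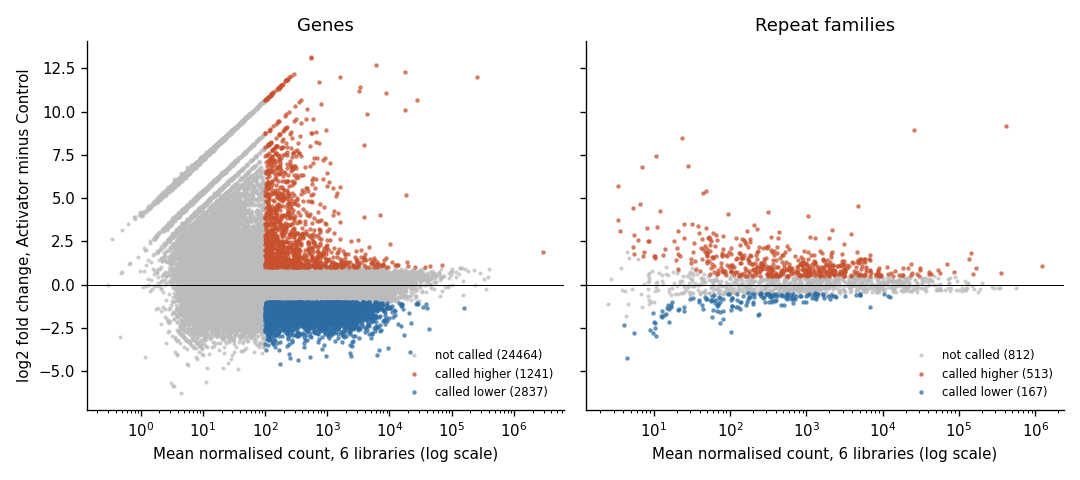
Log2 fold change against mean normalised read count (log axis) for all tested genes and all tested repeat families, with features called higher, called lower and not called in different colours. The genes called higher reach beyond a log2 fold change of 10, most of them at means just above 100, and those called lower lie between -1 and -5.

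Many genes without any count in the Control line were counted in the Activator line. Of all annotated genes, 4705 had 0 counts in the 3 Control libraries and at least 1 count in each Activator library, against 67 the other way round. Their median level in the Activator line was 5.90 normalised counts, and 127 of them were above 100. They included 815 of 5535 lincRNA genes (14.7%), 290 of 2855 antisense genes (10.2%), 908 of 9508 processed pseudogenes (9.55%) and 1660 of 21995 protein-coding genes (7.55%). Among the other types with the most such genes the share ran from 4.52% (rRNA) to 10.7% (transcribed unprocessed pseudogenes). Of the types named here only lincRNA genes lay above that range. In all, 37325 to 38335 genes had a count in the Activator libraries and 28229 to 29175 in the Control libraries. The uninduced Activator line, at 29231 to 29310, lay close to the Control line, and its number was 32491 to 35542 at the end of induction and 35534 to 37575 at 3 h. These counts by detection were examined after the values had been seen.

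Several of the genes with the largest rise are known from tissues other than fibroblasts. All 10 named here had 0 counts in the Control libraries, so each fold is a lower bound against 3 counts per Control library. Olfr1419, an odorant receptor (ENSMUSG00000067545; GRCm38 chr19:11868613-11875106, minus strand), had 971, 996 and 1341 normalised counts in the Activator line, at least 339-fold higher. Pde7b, a phosphodiesterase for cyclic AMP, had 983, 1215 and 1064 (at least 334-fold higher). Glyat, a mitochondrial glycine acyltransferase of liver and kidney, had 649, 523 and 592 (at least 180.5-fold higher). All 3 were within a narrow range across the Activator libraries. Fgf6, a growth factor of developing muscle, reached 441, 516 and 614 (at least 161-fold higher), and Ikzf1, the lymphoid transcription factor Ikaros, 528, 451 and 505 (at least 152-fold higher). The odorant receptors Olfr859 and Olfr1443 were at least 144-fold and 111-fold higher, Myo3b, a myosin of sensory hair cells, at least 130.0-fold, Xylt1, which starts glycosaminoglycan chains, at least 113-fold and Asic2, a proton-gated ion channel, at least 106-fold. Dock2, a guanine nucleotide exchange factor of blood cells, and the imprinted gene Zdbf2 had a few Control counts, and their ratios of mean counts were 581 (95% counting interval 161 to 4807) and 716 (245 to 3476).

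Odorant receptors were then counted as a family, after these values had been seen. Of 171 tested, 19 rose and 0 fell, which were all 19 whose mean was above 100, a mean they reached through the Activator libraries. A further count over all 1135 annotated odorant receptors gave 197 with counts in every Activator library and in no Control library. Among all protein-coding genes this held for 1660 of 21995 (7.55%). Of 46 vomeronasal receptors tested 4 rose, which were all 4 with a mean above 100. Among 1787 tested lincRNA genes 281 had such a mean, of which 77 rose and 79 fell. Of 367 zinc finger genes named Zfp 296 had such a mean, of which 11 rose and 124 fell. Over all genes with such a mean 9.06% rose and 20.7% fell.

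The predicted genes with the largest rise were Gm10718, with 0, 2.59 and 1.99 normalised counts in the Control line and 3959, 11152 and 20766 in the Activator line (log2 fold change 12.70, and 12.04 to 13.59 without single libraries), Gm10801, with 8.40, 6.90 and 5.97 against 17421, 33042 and 57696 (12.31, and 11.68 without Control replicate 3), and Gm10800, with 141, 83.6 and 84.5 against 133471, 478413 and 894041 (12.01). In all 3 Activator replicate 1 was the lowest and replicate 3 the highest, as for GSAT_MM. Gm10801 lies at chr2:98662237-98664083, plus strand. How reads that match several places were shared between such genes and the repeat families is not given in the sources used here.

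Genes near the starts of chromosomes, where mouse chromosomes carry their centromeres, were examined after the values had been seen. Of 689 genes tested within the first 5 Mb, 67 rose (9.72%) and 6.24% fell, while further bins had between 3.87% and 4.84% higher. Genes that rose there lay on 16 of 19 autosomes, with 14 of 72 on chromosome 11, 10 of 41 on chromosome 5, 10 of 26 on chromosome 9 and 7 of 65 on chromosome 8. Sfi1, a centrin-binding protein of centrioles (chr11:3131850-3193463, minus strand), had 939, 1096 and 844 counts in the Control line and 35447, 32218 and 39342 in the Activator line, a log2 fold change of 5.21. Its neighbour Pisd-ps1 rose by 3.94. Calcr, the calcitonin receptor on chromosome 6, had 0, 0 and 3.98 against 1104, 1185 and 1222. On chromosome 5 Rbm48 rose by 2.07, and on chromosome 8 Camsap3, which binds microtubule minus ends, by 3.49. Sfi1 and Pisd-ps1 have near copies elsewhere in the genome, so their reads are uncertain. The genes that rose on chromosome 9 were mostly predicted genes in runs of 5 (chr9:3017408-3038316, with Gm10718) and 4 (chr9:3000282-3038313). Gm26870, for instance, had 29.4, 32.8 and 28.8 against 14786, 49450 and 103002. In each gene of these 2 runs Activator replicate 1 was lowest and replicate 3 highest, as for GSAT_MM. Whether satellite reads were counted in them was not tested.

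**Figure D4:**
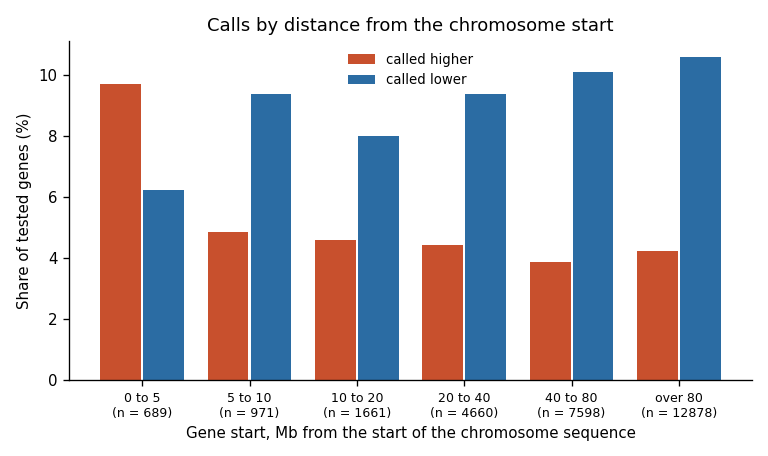
Percent of tested genes called higher and called lower against the distance of the gene start from the start of its chromosome, in bins of Mb. The first 5 Mb hold 9.72% of genes called higher, above every other bin, and 6.24% called lower.

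Genes that rose also lay beside each other. The nearest tested gene that did not overlap it was called higher for 345 of 1235 genes that rose (27.9%), against 2398 of all 28457 (8.43%). For genes that fell the figures were 25.9% and 18%. In runs, unlike in these figures, overlapping annotations were counted, such as Rn7s1, Gm47287 and Gm47295 within chr12:69159295-69159596. A run therefore need not hold separate loci. Runs of at least 3 neighbours that all rose numbered 44, and the longest held 6 genes. One of these ran from chr15:38661933-39006185 and held Atp6v1c1, a subunit of the proton pump of lysosomes, which rose by 1.36, and Baalc, a gene of brain and leukaemic cells, which went from 81.2, 61.2 and 82.6 to 1707, 1475 and 1849.6. Another, on chromosome 11, held Vtn, the liver protein vitronectin, with 1.40, 1.72 and 0.995 against 429, 246 and 486. Hkdc1, a hexokinase-like gene, had 16.8, 9.48 and 8.95 against 1707, 1708 and 1655 beside other genes that rose on chromosome 10. The sterol transporters Abcg5 and Abcg8, which share a promoter region and are expressed in liver and gut, went from 0, 0 and 0 to 352, 282 and 395 and from 5.60, 15.5 and 4.97 to 633, 417 and 666. These pairs and runs were chosen after their values were seen.

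Among the largest falls were genes of growth signalling and of the matrix. Irs1, the adaptor that couples insulin and IGF receptors to PI3 kinase (ENSMUSG00000055980; GRCm38 chr1:82233101-82291416, minus strand), had 10429.9, 11681 and 13128 normalised counts in the Control line and 331, 1845 and 319 in the Activator line. Its log2 fold change was -4.09 ± 0.57 (SE, adjusted p = 1.23e-06, edgeR), and without Activator replicate 2, the highest of the 3, it was -5.0. Has2, the main hyaluronan synthase of fibroblasts, fell from 966, 759 and 1257 to 39.7, 84.0 and 35.8 (log2 fold change -4.19). Pcdh18, a protocadherin, fell from 4582, 3285 and 5138 to 206, 395 and 238 (-3.95), and Hmga2, a chromatin protein that binds A/T-rich DNA, from 28389, 36423 and 56333 to 3325, 2633 and 1977 (-3.91). In all 4 genes every Activator library was below every Control library. The protease Adamts5 (log2 fold change -3.76), the nucleoside transporter Slc29a2 (-3.59) and the nuclear receptor Nr2f2 (-3.54) followed. Of the predicted genes Gm28119 (-4.33), Gm9747 (-4.14) and Gm43921 (-4.10) fell most, and further without Activator replicate 2 (-5.14, -5.19 and -5.32). Gm9747 lies inside Irs1 on the opposite strand, and the strand setting of the counting is not given in the sources used here, so its reads cannot be told apart from those of Irs1.

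Some of the more abundant small nucleolar RNAs fell. Snord78 had 498, 502 and 439.6 counts in the Control line and 18.5, 47.3 and 11.6 in the Activator line (log2 fold change -4.23 ± 0.34, SE, adjusted p = 1.85e-11, edgeR, and -4.91 without Activator replicate 2). Mir5117, annotated as a snoRNA, had 299.6, 322 and 315 against 16.6, 34.8 and 17.3. Both lie in Gas5, a host gene whose introns give rise to many C/D box snoRNAs and whose own transcript fell from 7506, 7808 and 7473 to 2863, 2095 and 1912 (-1.75). Of 10 snoRNA entries tested in Gas5, which include Mir5117 and 2 overlapping entries for Snord80, 9 fell. Over all 458 snoRNA genes tested, 52 had a mean above 100, of which 23 fell and 0 rose, beside 20.7% and 9.06% of all genes with such a mean. They were grouped after their values had been seen. The 23 that fell are not 23 separate loci. They include the 9 in Gas5, and others lie together at chr19:8723993-8725991, from Gm25855 to Snord22.

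The windows just upstream of 2 genes that rose from 0 counts and of 2 that fell are shown to set their base composition side by side. Each is 250 bases before the RefSeq start in GRCm38.p6, written 5′ to 3′ on the strand of the gene, with CG dinucleotides in capitals. Glyat, on the plus strand, is from chr19:12633058-12633307, and Fgf6, on the plus strand, from chr6:127015292-127015541. Irs1, on the minus strand, is from chr1:82291440-82291689, and Pcdh18, on the minus strand, from chr3:49757317-49757566.
Glyat: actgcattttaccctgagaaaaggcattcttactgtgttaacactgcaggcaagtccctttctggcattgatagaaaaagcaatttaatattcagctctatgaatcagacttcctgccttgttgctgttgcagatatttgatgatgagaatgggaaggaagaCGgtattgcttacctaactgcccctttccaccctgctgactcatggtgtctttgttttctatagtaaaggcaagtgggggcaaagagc
Fgf6: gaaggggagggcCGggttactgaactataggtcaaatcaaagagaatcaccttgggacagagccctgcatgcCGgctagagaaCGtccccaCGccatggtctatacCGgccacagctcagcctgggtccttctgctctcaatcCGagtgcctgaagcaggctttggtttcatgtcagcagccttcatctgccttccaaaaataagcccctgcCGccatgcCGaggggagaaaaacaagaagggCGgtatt
Irs1: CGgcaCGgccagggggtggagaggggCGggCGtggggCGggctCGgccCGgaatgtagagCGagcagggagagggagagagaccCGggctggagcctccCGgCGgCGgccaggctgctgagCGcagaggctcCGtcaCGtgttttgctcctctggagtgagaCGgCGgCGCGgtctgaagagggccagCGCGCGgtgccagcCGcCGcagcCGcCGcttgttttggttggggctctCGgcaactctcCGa
Pcdh18: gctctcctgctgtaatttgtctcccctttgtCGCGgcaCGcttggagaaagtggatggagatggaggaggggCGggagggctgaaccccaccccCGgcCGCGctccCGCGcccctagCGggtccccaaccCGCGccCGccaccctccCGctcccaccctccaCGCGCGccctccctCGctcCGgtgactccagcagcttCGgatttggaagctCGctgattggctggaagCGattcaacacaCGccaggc
The windows hold 1, 9, 28 and 23 CG dinucleotides in this order. The same count was made, after the values had been seen, for the 10939 tested protein-coding genes with a RefSeq start within 500 bases of the annotated one. The median was 14 over all of these and 17 over the 7851 with a mean above 100, from which calls come. It was 8 over the 545 of them that rose and 17 over the 1561 that fell. Over 579 newly detected genes at any level, tested or not, it was 5. At least 10 CG dinucleotides were present in 66.7%, 78.8%, 44.8%, 79.4% and 28.2% of them. The letters GGGCGG, on either strand, were in 54.8% of all windows, 61.8% of those of genes with a mean above 100, 38.5% of those of genes that rose and 66.1% of those of genes that fell. They are in the windows of Fgf6, Irs1 and Pcdh18 and not in that of Glyat. In the same order TATAAA was in 7.54%, 5.87%, 11% and 4.29%, and CCAAT, which is in the window of Pcdh18, in 36.3%, 37.7%, 32.8% and 38.6%. Such matches describe the windows only.

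The fold changes were also read against gene structure. Only protein-coding genes with a mean above 100 were used, and of these 11428 genes 913 rose and 2268 fell. Their median log2 fold change was 0.39 for the 290 with up to 1 kb of exon and -0.36 for the 2191 with over 8 kb. Of those with up to 1 kb 13.1% rose and 5.52% fell. Of those with a single exon block 98 of 318 fell (30.8%), and of those with 2 blocks 143 of 379 (37.7%).

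Fixed lists of genes were then read, each by the number of its tested members that rose and fell and by its median, beside 4.35% and 9.94% of all genes and a median of 0.14. Over genes with a mean above 100, where most members of most lists lie, 9.06% rose and 20.7% fell, with a median of -0.15, and a list near these shares is not set apart from other genes by its count. Mesenchymal transcription factors, which set fibroblast and skeletal progenitor identity, had the lowest median, -1.61, with 21 of 29 lower and 0 higher. Nr2f2 fell from 4010.4, 4327 and 5613 to 293, 672 and 269. Runx2, of bone progenitors (-2.61), Snai2 (-2.14) and Twist1 (-1.94), of epithelial to mesenchymal transition, and Prrx1, of limb mesenchyme (-1.92), fell too. Of 28 Hox genes 9 fell and 0 rose (median -0.58), with Hoxa3 at -1.87.

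Growth factor receptors and their feedback inhibitors had 14 of 22 lower and 0 higher (median -1.23). The receptors for platelet-derived growth factor, Pdgfra (-2.07) and Pdgfrb (-1.51), and for epidermal growth factor, Egfr (-1.41), fell. So did the inhibitors that growth factor signalling switches on, Dusp4 (-3.06) and Spry2 (-2.22), and the second insulin receptor substrate Irs2 (-2.26). In the TGF-beta and BMP pathway 14 of 29 fell and 0 rose (median -1.02). They covered ligands (Inhba at -2.88, Bmp4 at -2.52), a receptor (Tgfbr2 at -1.49), the effector Smad3 (-2.52, and -3.12 without Activator replicate 2) and the target Id1 (-2.54). In the Wnt pathway 5 of 29 fell, with the receptor Fzd2 at -3.07 (-3.79 without Activator replicate 2), and 2 rose, with the secreted inhibitor Sfrp1 at 1.95. Contractile genes and targets of YAP and SRF had 7 of 20 lower, among them Edn1 (-3.43), Ankrd1 (-2.5) and Ccn2 (-1.96), and 1 higher, Tagln (1.60), a smooth muscle actin-binding protein.

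Collagens and matrix genes differed from this, with 5 of 33 higher, 2 lower and a median of 0.36. Mmp13, a collagenase, rose by 3.38 and Dcn, the proteoglycan decorin, by 1.29, whereas Thbs1, thrombospondin 1, fell by 1.65. Col1a1, the main collagen chain, was at -0.24 and was not called.

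**Figure D5:**
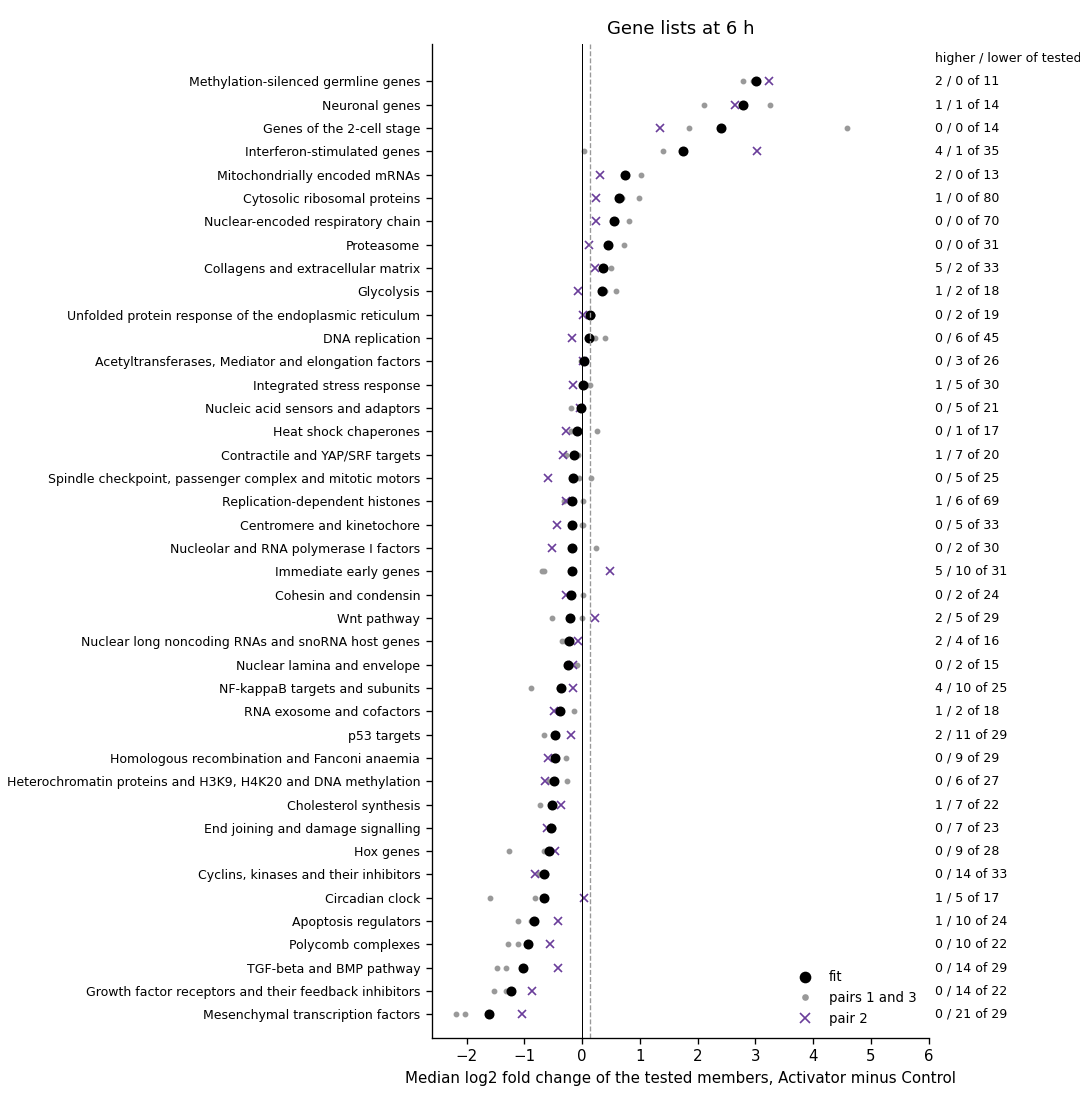
Median log2 fold change of 41 gene lists (black), with the medians in replicate pairs 1 and 3 (grey) and pair 2 (violet crosses), and the counts of members called higher and lower of those tested at the right. The dashed line at 0.14 is the median of all tested genes, mesenchymal transcription factors lie lowest at -1.61, and the pair medians of the interferon-stimulated genes run from 0.03 to 3.03 and those of the 2-cell stage genes from 1.35 to 4.58.

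Among the chromatin lists, of 22 polycomb genes 10 fell and 0 rose (median -0.94), with Cbx2, a reader of H3K27me3, at -2.40 (-3.27 without Activator replicate 2), and Ezh2, its methyltransferase, at 0.36, not called. Of 27 genes for heterochromatin proteins and for methylation of H3K9, H4K20 and DNA, 6 fell and 0 rose (median -0.50). Suv39h1, which places H3K9me3 on the satellite repeats, had 2769, 2732 and 2743 against 1303, 1128 and 1267 and fell by 1.16. Setdb1 (-1.81), which silences retroviral elements, the H4K20 methyltransferase Kmt5c (-2.32) and the DNA methyltransferase Dnmt3b (-2.49) fell as well. Suv39h2 (-0.78), the HP1 gene Cbx5 (-0.91) and Dnmt1 (-0.14) were not called. Of 15 lamina and envelope genes 2 fell, Lmnb1 (-1.28) and Syne3 (-1.68). Among the 26 acetyltransferase, Mediator and elongation genes, the kind of factor VPR recruits, 3 fell and 0 rose, with the Mediator kinase Cdk8 at -1.27.

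Of the cell cycle lists, only the first below had a larger share lower than the 20.7% of all genes with a mean above 100. Of 33 cyclins, kinases and inhibitors 14 fell and 0 rose (median -0.66), including drivers such as Ccnd1 (-1.18) and the phosphatase Cdc25b (-2.35) and inhibitors such as Cdkn1b (-2.28) and Cdkn2b (-2.28, and -3.02 without Activator replicate 2). Ccnb1, the mitotic cyclin, was at 0.28 and was not called. Of 33 centromere and kinetochore genes 5 fell, with Knl1, the kinetochore scaffold, at -1.76 and Cenpf at -1.38, and Cenpa, the centromeric histone, at -0.23 was not called. Of 25 spindle checkpoint and mitotic genes 5 fell, with Sgo2a, a protector of centromeric cohesion, at -2.06, and Espl1, separase, at -1.80; Aurkb was at -0.16, not called. Cohesin and condensin had 2 of 24 lower, with Esco2, a cohesin acetyltransferase concentrated at pericentric heterochromatin, at -1.29. Of 45 replication genes 6 fell (median 0.11), with Wdhd1 at -1.99 and Tk1 at -1.77, and Mcm2 was at 0.52, not called. Of 69 replication-dependent histone genes 6 fell, Hist1h2bh most (-2.11), and 1, Hist1h2ad, rose by 1.34 (adjusted p = 0.0434, edgeR). Leaving out Activator replicate 1 or 2 or Control replicate 1 or 2 took its adjusted p to between 0.0937 and 0.164 (edgeR).

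In the list for homologous recombination and Fanconi anaemia 9 of 29 fell and 0 rose (median -0.47). Brca1, the central factor of homologous recombination, had 4118, 4177 and 4097 counts in the Control line and 1576, 1196 and 1447 in the Activator line, a fall of 1.56 on the log2 scale, and Xrcc2, of the same pathway, fell by 2.31. Of 23 genes for end joining and damage signalling 7 fell and 0 rose (median -0.53), among them the kinases Chek2 (-1.93) and Atm (-1.02) and Rif1 (-1.33).

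The p53 targets moved in both directions. Cdkn1a, the p21 inhibitor of the cell cycle, rose from 206, 135 and 126 to 529, 494 and 546 (log2 fold change 1.76, adjusted p = 2.2e-07, edgeR). Mdm2, which degrades p53, had 2172, 2299.9 and 2409.9 against 4595, 4327 and 4337, without overlap, at 0.95, just under the limit for a call. In the list of 29, 2 rose and 11 fell (median -0.47), and among those that fell were Plk2 (-2.63), the death receptor Fas (-2.17) and the BH3 protein Bbc3 (-1.21). Apoptosis regulators had 10 of 24 lower and 1 higher (median -0.84). The survival proteins Bcl2l1 (-3.33), Bcl2 (-2.02) and Mcl1 (-1.42) fell, and so did the killers Bid (-2.32), Casp9 (-1.78) and Apaf1 (-1.61), while Diablo, which frees caspases from their inhibitors, rose by 1.15.

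Stress programmes showed few calls. In the integrated stress response 5 of 30 fell and 1 rose (median 0.01): Chac1 fell by 2.12, the transcription factor Atf3 rose by 1.60, and Atf4 (-0.76) was not called. Ddit3, the death-associated factor CHOP, was at -0.60 and was not called either. In the unfolded protein response 2 of 19 fell, the chaperone Hspa5 (-1.13) and the transcription factor Xbp1 (-1.72). Of 17 heat shock chaperones only Hspb8 fell (-1.56) and 0 rose, and Hspa1a, the inducible HSP70, was at 0.90 without a call.

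Immediate early genes, which serum and stress switch on within minutes, split into 5 higher and 10 lower of 31 (median -0.18). Egr1 rose from 3089, 3277 and 3609 to 13691, 21157 and 16688 (log2 fold change 2.35), and Fos rose by 1.25. Myc, the growth regulator, fell from 7902, 8866 and 10916 to 894, 1789 and 1268, by 2.83 on the log2 scale. In each of these genes the libraries of the lines did not overlap. Among NF-kappaB targets and subunits 4 of 25 rose and 10 fell (median -0.37). The cytokine Il6 (2.43), Traf1 (3.53, and 4.12 without Control replicate 1), Ptgs2 (1.61) and Relb (1.07) rose, and the chemokines Cxcl1 (-2.56, and -3.18 without Activator replicate 2) and Ccl2 (-2.51), the growth factor Csf1 (-2.92) and the inhibitor Tnfaip3 (-2.14) fell. Nfkbia was at -0.94 without a call.

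Interferon-stimulated genes varied between the Activator replicates. Their median was 1.75, with 4 of 35 called higher and 1 lower, but the medians of the 3 replicate pairs were 0.03, 3.03 and 1.40. Activator replicate 2 held the highest level for 34 of the 35. Ifit1, which binds viral RNA, had 5.60, 12.1 and 5.97 in the Control line and 9.23, 1079.8 and 74.0 in the Activator line (log2 fold change 4.90), and it was 3.20 without Activator replicate 2 and 4.06 without Control replicate 2. The number of the 35 genes above every Control library was 17, 33 and 24 in Activator replicates 1, 2 and 3, and without replicate 2 the median was 1.12. Only 14 of the 35 had a mean above 100. The same counts over all genes are not given here, so these only set the replicates beside each other. Oasl2 (2.97), the transcription factor Irf7 (1.75) and Parp14 (1.41) were also called higher, and Ifit2 fell by 1.94. Oasl2 was lost without Activator replicate 2 (1.5, adjusted p = 0.29, edgeR), Control replicate 2 (1.79, adjusted p = 0.187) or Control replicate 3 (2.99, adjusted p = 0.0529). Isg15, at 1.42 (adjusted p = 0.0823, edgeR), was at 2.38 without Control replicate 1 and 0.43 without Activator replicate 2. Of 21 nucleic acid sensors and adaptors 0 rose and 5 fell, among them the adaptor Mavs (-1.24) and the kinase Ikbke (-1.58). Cgas, the sensor of DNA, had 4.20, 0.862 and 4.97 against 79.4, 51.2 and 97.1 and was too low for a call.

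Genes for translation and energy metabolism gave few calls. Of 80 ribosomal protein genes 79 lay above 0 and 1, Rpl13 (1.03), was called higher, and the median was 0.64 but -0.07 on the mitochondrial scale. Rps6 was at 0.81, and Rplp0 at 0.69 but -0.025 on the mitochondrial scale. The 70 nuclear genes of the respiratory chain (0 called higher or lower, median 0.55) and the 31 proteasome genes (0 called, 0.45) were at -0.17 and -0.27 on that scale. Cox4i1 was at 0.83, Atp5b at 0.71 and Psmd1 at 0.55, the last of these at -0.17 on that scale. The mitochondrial mRNAs themselves made up 1.91% ± 0.18 of gene counts in the Control line and 2.87% ± 0.64 in the Activator line (SD, n = 3 each, exact two-sided permutation p = 0.1, the smallest possible). Of these 13, 2 were called higher, mt-Co3 (1.10) and mt-Nd4l (1.03), and mt-Co1 was at 0.89. In glycolysis 2 of 18 fell, with Hk2, a hexokinase, at -2.12, and 1 rose, the lactate exporter Slc16a3 (1.57).

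Of 22 genes of cholesterol synthesis and uptake 7 fell and 1 rose (median -0.52). Insig1 (-2.10, and -2.89 without Activator replicate 2), which restrains sterol synthesis, and Hmgcs1 (-1.85), an early enzyme of it, fell.

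Among the genes of RNA handling, the exosome and its cofactors had 2 of 18 lower, with Exosc7 at -1.97, and 1 higher, Exosc10 at 1.02, its nuclear nuclease. Of 30 nucleolar and RNA polymerase I genes 2 fell, with Polr1b, a core subunit, at -2.13. Of 16 nuclear long noncoding RNAs and snoRNA hosts 4 fell, with Snhg5 at -2.44, and 2 rose, with Terc, the telomerase RNA, at 1.21; without the replicate block Terc was not called. In the circadian clock 5 of 17 fell, with the repressor Nfil3 at -2.29, and 1, Rora, rose by 1.49, while Per1 was at -0.99 and was not called.

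The tested members of the germline, neuronal and 2-cell stage lists had medians above that of all genes. Some are well expressed in the Control line, such as Tubb3 with 1116, 807 and 761 counts. Of the members 11 of 20, 14 of 22 and 14 of 19 passed the filter on low counts and were tested. Members at 0 in the Control libraries, such as Stra8 and Dcx, passed it through other libraries, so these medians follow in part from the filter. The germline genes silenced by DNA methylation had a median of 3.01 over 11 tested (2.76 with genes at 0 in the Control line set to their bound), with 2 called higher, Piwil2, of the piRNA pathway (5.19), and Taf7l (3.01). Sycp3, of the synaptonemal complex, was at 0.36, and at -0.34 on the mitochondrial scale. The 14 neuronal genes had a median of 2.78 (1.87 with the bound), with Syn1 higher (1.43) and Tubb3 lower (-1.53). The 14 genes of the 2-cell stage had a median of 2.40 and no member with a mean above 100. Zscan4c, a defining member, had 2.80, 5.17 and 2.98 against 29.5, 17.4 and 25.4.

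The label of the cells was checked by markers. The sum over the fibroblast markers was 927134 to 1115420 normalised counts in the Control line and 953140 to 1023120 in the Activator line, so the lines overlapped. Pdgfra, as given above, was 1 of 2 fibroblast markers that fell. The sums over endothelial markers were 42.8 to 72.4 against 1505 to 1761, with Pecam1, the CD31 adhesion protein, at 15.4, 16.4 and 18.9 against 1288, 1111 and 1023 (log2 fold change 6.05) and Tek also called higher, and Emcn at 0 in the Control libraries. Macrophage markers summed to 551 to 663 against 1084 to 1211, with Ptprc, the pan-leukocyte CD45, at 1.40, 0 and 0 against 38.8, 34.8 and 34.7, Itgam higher by 5.18 (5.89 without Control replicate 1) and Adgre1 at 0 in the Control libraries. Cd68, with 200, 216 and 180 against 187, 206 and 202, overlapped and was not called. Hepatocyte markers summed to 18.2 to 138 against 220 to 304, with Alb, serum albumin, at 1.40, 0.862 and 0 against 224, 162 and 249 and Serpina1a at 0 in the Control libraries. Afp, alpha-fetoprotein, had 14.0, 101 and 133 against 26.8, 21.2 and 9.25 (log2 fold change -2.06, with a mean too low for a call), so the groups overlapped, and it made up most of the sum in each Control library. Skeletal muscle markers summed to 170 to 330 against 409 to 457, with Myod1, Myog and Actc1 at 0 in the Control libraries. Des made up most of the sum in each Control library and did not rise (329, 196 and 166 against 172, 192 and 201). Ckm, at few counts, was at -0.85 and was not called. Epithelial markers summed to 41.8 to 68.6 against 83.1 to 127. Of these Cdh1 was at 2.28, too low for a call, and Krt8 (-0.11) and Krt18 (-0.36) were below 0. In all 5 of these lists the sums of the Activator libraries were above those of the Control libraries. The part of other cells in these values was not tested.

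The lines were also compared without induction. When the difference between uninduced lines was subtracted in the model, 722 genes were higher and 2959 lower, 2.53% and 10.4% of those tested. The largest rises beyond the uninduced difference were Olfr1419 (13.06), Myo3b (12.53), Zdbf2 (11.90), Fgf6 (11.49) and Dock2 (11.45), fitted values that depend on the prior count where Control is at 0. The largest falls were Pcdh17 (-5.26), Zfhx4 (-4.54), Has2 (-4.03), Snord78 (-3.90) and Irs1 (-3.87). Pcdh17 and Zfhx4 rest on 1 library: at 6 h Pcdh17 had 976, 25.9 and 15.9 in the Control line against 7.38, 18.4 and 6.94, and without Control replicate 1 the difference between the lines was -0.96 for Pcdh17 (adjusted p = 0.0808, edgeR) and 0.59 for Zfhx4.

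Few genes separated 6 h from 3 h. In the contrast of the differences 5 genes were higher at 6 h (0.0175% of those tested) and 1 lower (0.0035%), and without the replicate block 0 were called. Without Control replicate 2 the number was 0, without Activator replicate 2 it was 1, without Control replicate 3 it was 3, and DESeq2 called 25. The 5 were Lif, a cytokine (1.91 ± 0.36, SE), Ier3, an early response gene (1.68 ± 0.29), P2rx7, an ATP-gated channel (1.43 ± 0.27), Hmox1, haem oxygenase 1 (1.31 ± 0.25), and Errfi1, an inhibitor of EGF receptors (1.22 ± 0.22). Lif stood at -2.99 at 3 h and at -1.09 at 6 h, and Hmox1 at -1.45 and -0.14, so both were further below the Control line at 3 h than at 6 h. P2rx7 was higher at both times, at 2.18 and 3.61, with 266, 264 and 209.9 against 2416, 3636 and 2977 counts at 6 h. Ccdc18 was the gene that was lower (-1.0 ± 0.17). Of the repeat families 0% were higher and 0% lower (edgeR, 28 families at an unadjusted p under 0.05, no other tool was run).

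From 6 h to 12 h more genes moved. The difference between the lines was higher at 12 h for 67 genes (0.235%) and lower for 9 (0.0315%), and without the block 44 were called. The number was 15 without Control replicate 1, 16 without Activator replicate 1, 34 without Activator replicate 3, 378 without Activator replicate 2 and 154 with DESeq2. P2rx7 again rose (2.13 ± 0.27, SE), to 5.74 at 12 h. Fat2, a giant cadherin (2.88), AY036118 (4.63), Mir6236 (2.41) and Snora17 (2.20) had the other largest values. AY036118 had an adjusted p under 0.05 in 5 of 9 fits (edgeR or DESeq2) and Mir6236 in 3 of 9. Annotated rRNA took 0.562%, 0.620% and 2.55% of gene counts in Activator replicates 1, 2 and 3 at 12 h. Whether these contrasts follow rRNA left in replicate 3 was not tested. Those that were lower included S100a4, a calcium-binding protein of fibroblasts (-1.42), the scaffold Shank2 (-1.34), the guidance factor Sema3a (-1.21), the linker histone Hist1h1a (-1.20) and Hmgb3 (-1.19). Among repeat families 1 was higher at 12 h (0.067%) and 0% were lower. It was the ERVK element RLTR1F_Mm, at 245, 219.8 and 244 against 287, 305 and 276 at 6 h, where it was not called, and at a log2 fold change of 1.47 at 12 h.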

How the data were processed

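The authors sequenced ribosomal RNA-depleted, stranded total RNA as paired 150-base reads, which were trimmed (cutadapt), aligned to GRCm38 (STAR) and summed per gene and per repeat family (TEtranscripts). The deposited values are these raw counts, 1 column a library. The annotation release, the strand setting and how reads with several matches were shared are not given in the sources used here. The members, lists and groups were chosen with earlier results of these data known. The MSR-dCas9-Repressor libraries were not used here.

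Counts were tested with edgeR 4.0.16 in R 4.3.3 (robust quasi-likelihood fit on all 36 libraries, group plus replicate number as a block, TMM factors from genes, filterByExpr by group), with Benjamini-Hochberg adjustment over all genes or all repeat families. A gene was called at an adjusted p under 0.05, a log2 fold change beyond 1 and a mean above 100 normalised counts, and a repeat family at an adjusted p under 0.05 and a log2 fold change beyond 0.5. Normalised counts are counts divided by the TMM library size and scaled to 41607371. A gene at 0 in the Control line was set against 3 counts per Control library, and counting intervals cover counting error only. Changes between times were tested as contrasts of the 2 differences, which share no library. Deviations from the group means of same-numbered Control and Activator libraries correlated at 0.161, 0.125 and 0.386 over 13704 genes, and each library correlated best with its own number, so the numbers were taken to pair the libraries. The scripts were tested on simulated counts with known changes. Exact permutation tests were used for single values.

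Named genes were the 10 largest rises and falls among called genes without overlap, leaving out predicted genes, clones and pseudogenes, the 3 largest predicted genes in each direction, key members and the largest called changes of 47 gene lists and the repeat groups, and the 5 largest in each direction of each contrast between times. A few genes that this rule names are not reported here. Genes in other groups were named after their values were seen, as were more members of the lists. DESeq2 1.42.0, other scalings, other filters and limits, the fit without the block and fits without each library served as alternatives.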

Additional observations from a re-analysis of the deposited data

Results flagged for a closer look

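The difference between the lines at 6 h differed from that before induction for 3681 genes by the contrast of differences in edgeR. The largest positive contrasts were Olfr1419 (13.06), Myo3b (12.53), Zdbf2 (11.90), Fgf6 (11.49) and Dock2 (11.45), all fitted against counts at or near 0. The largest negative ones were Pcdh17 (-5.26), Zfhx4 (-4.54), Has2 (-4.03), Snord78 (-3.90) and Irs1 (-3.87). For Pcdh17 and Zfhx4 the value rests on Control replicate 1, as given above.

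The difference at 6 h differed from that at 3 h for 6 genes. The contrasts were 1.91 for Lif, 1.68 for Ier3, 1.43 for P2rx7, 1.31 for Hmox1, 1.22 for Errfi1 and -1.0 for Ccdc18, and all 6 had an adjusted p between 0.0582 (Ier3) and 0.112 (Ccdc18) (edgeR) in the fit without the replicate block.

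The difference at 12 h differed from that at 6 h for 76 genes and 1 repeat family. The largest contrasts were AY036118 (4.63), Fat2 (2.88), Mir6236 (2.41), Snora17 (2.20) and P2rx7 (2.13), and in the negative direction S100a4 (-1.42), Shank2 (-1.34), Sema3a (-1.21), Hist1h1a (-1.20) and Hmgb3 (-1.19). For AY036118 and Mir6236 the adjusted p depended on the fit, as given above. The repeat family was RLTR1F_Mm, at 1.17 ± 0.23 (SE, adjusted p = 0.00294, edgeR). P2rx7 was the gene among those named that was higher in both steps.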

How the results depend on the processing

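Over 3365 comparisons of a named feature with an alternative, 3166 kept the direction and the side of an adjusted p of 0.05, 144 lost it, 22 gained it and 33 turned; the cause of each change was not tested. The 4078 genes called at 6 h were 3982 without the replicate block, 3891 with DESeq2, 3868 to 4490 without single libraries, 6858 scaled to mitochondrial mRNAs, 7647 with a log2 limit of 0.5, 10573 with a mean limit of 10 and 16154 without a filter on low counts, the last 2 by taking in genes at lower levels. The 680 repeat families called were 672 without the block, 631 to 699 without single libraries and 326 with a log2 limit of 1. The 3681 genes beyond the uninduced difference were 3522 without the block, 3413 to 4173 without single libraries and 6698 on the mitochondrial scale. The 6 genes between 3 h and 6 h were 25 with DESeq2, 0 without the block and 0 to 8 without single libraries, and the 76 between 6 h and 12 h were 154, 44 and 15 to 378. The 1 repeat family between 6 h and 12 h was 2 without the block and 1 to 2 without single libraries. The block changed the side of an adjusted p of 0.05 for 13 named features and for no other: Terc, Hist1h2ad, Ddit3, Cenpa, Ccnb1, Gm26917, Mir6236 between 6 h and 12 h and the 6 genes between 3 h and 6 h. The repeat share difference of 2.07 percentage points was 0.74 to 2.83 without single libraries.

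On the mitochondrial scale the fold change turned for Ezh2 (-0.36), Ccnb1 (-0.45), Mcm2 (-0.20), Rplp0 (-0.025), Psmd1 (-0.17), Sycp3 (-0.34), Mir6236 (-0.69), MT2_Mm (-0.080), MTA_Mm (-0.22), B1_Mm (-0.57), IMPB_01 (-0.65), 5S (-0.64) and RLTR1F_Mm (-0.41). With library size alone it turned for Mir6236 (-0.11), B1_Mm (-0.020), IMPB_01 (-0.093) and 5S (-0.083), and with DESeq2, and with its size factors alone, for Dnmt1 (0.043 and 0.044), Aurkb (0.024 and 0.024) and Hmox1 (0.033 and 0.033). Without single libraries the values ran from -0.26 to 0.0045 for Aurkb, -2.39 to 0.59 for Zfhx4, -0.32 to 0.039 for Hmox1, -0.69 to 0.051 for AY036118, -0.11 to 0.25 for Mir6236, -0.67 to 0.19 for MMVL30-int, -0.028 to 0.10 for IMPB_01 and -0.020 to 0.14 for 5S. Apart from Zfhx4 and MT2_Mm, these were not called at 6 h. With 3 libraries a group, no exact permutation test could pass 0.05, and genes with means under 100 normalised counts could not be called.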

Other observations

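Other RNAs made by RNA polymerase III were read beside the tRNA and B2 families, after their values had been seen. The family 7SLRNA, the RNA core of the signal recognition particle, took 797011, 812526 and 775388 normalised counts in the Control line and 1998880, 1263820 and 1750350 in the Activator line, without overlap, and rose by 1.06 on the log2 scale (0.33 on the mitochondrial scale, adjusted p = 0.187, edgeR). The family of 7SK RNA, which holds the elongation factor P-TEFb inactive, went from 134136, 101661 and 99748 to 302329, 156570 and 210486 (log2 fold change 0.98, and 0.24 on the mitochondrial scale, adjusted p = 0.349, edgeR). Activator replicate 2 was the lowest of the 3 Activator libraries in both. Rpph1, the RNA of ribonuclease P, had 69065, 110746 and 106688 against 203472, 140629 and 189459 and was at 0.94, under the limit for a call (0.21 on the mitochondrial scale). The family of 5S ribosomal RNA, also a product of RNA polymerase III, had 997, 1079 and 1093 against 1074, 1229 and 988 and was not called (0.055).

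The most abundant gene in the tables was Gm26917, a lincRNA on chromosome 17, with 476268, 1003700 and 2482730 normalised counts in the Control line and 2026960, 3814560 and 7542450 in the Activator line (log2 fold change 1.86, adjusted p = 0.000102, edgeR). Control replicate 3 was above Activator replicate 1, so the lines overlapped, and without the replicate block the adjusted p was 0.0767. Annotated rRNA took 0.189%, 0.316% and 0.547% of gene counts in the Control libraries and 0.377%, 0.542% and 0.696% in the Activator libraries. It rose with the replicate number in both lines, as Gm26917 did (exact two-sided permutation p = 0.3 between the lines). Whether rRNA reads were counted in Gm26917 was not tested.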
